A study of Mus musculus with 35 samples.

Results

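The 4 libraries of day 9 compare *Dnmt1* knockout (KO) mouse embryonic stem cells (ESCs) with their wild type (WT) controls, 2 libraries a side, 9 days after deletion of *Dnmt1* was induced. They were chosen by their labels, which give the day, the genotype and the replicate, and are 4 of the 35 libraries in the series. The cells carry *Dnmt1* with loxP sites on both alleles and a Cre recombinase that tamoxifen switches on. The labels call the controls wild type and do not say whether they were given the drug. The labels name the strain E14, whereas the methods describe C57BL/6 cells. Cells grew in serum with LIF, and the methods describe culture both on feeder cells and without them. Total RNA was depleted of ribosomal RNA before sequencing, so the values hold nascent as well as mature transcripts. Nothing in the labels says that the 2 libraries of a group came from separate cultures, so p-values measure the spread between these libraries, which may be technical.

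Levels are given in RPKM, which are reads scaled by exon length (in kilobases) and by library size (in mega-reads). Library sizes ran from 24.3 to 70.7 mega-reads, and the reads in exons from 5.10 to 15.01 mega-reads. At these depths a count of 3 reads, taken here as the floor, equals between 0.0424 and 0.123 RPKM for a gene with 1 kb of exon. Floors cover counting error only. Differences between KO and WT are given on the scale of log2(RPKM + 0.1), which understates the change of genes with low values, with the standard error (SE) and the adjusted p of limma, a linear model whose spread was shared over 20 libraries of days 0 to 9.

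DNMT1 is the maintenance DNA methyltransferase. It copies CpG methylation onto the new strand after replication, and without it methylation is diluted with each cell division. In ESCs methylation keeps silent many germline genes with CpG-rich promoters, 1 allele of imprinted genes and several families of transposons, while the cells can go on dividing. Day 9 addresses which genes differ in RNA after the cells have grown for days without the enzyme.

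*Dnmt1* itself was measured at 19.9 and 19.5 RPKM in WT and 3.32 and 3.12 RPKM in KO. Both KO libraries lay far below both WT libraries (log2 difference -2.58, SE 0.048, limma adjusted p = 6.71e-16). The gene lies on chromosome 9 of build NCBIM37, from 20711650 to 20757317 on the minus strand, and the value counts all its exons, so which exons were deleted cannot be read from it. At day 0, before deletion, it had 18.3 and 18.4 RPKM in WT and 18.7 and 18.5 RPKM in KO.

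Markers of ESCs were present in all 4 libraries. *Pou5f1*, which encodes OCT4, had 61.8 and 58.6 RPKM in WT and 62.1 and 58.4 RPKM in KO, and the groups overlapped (log2 difference 0.0017, SE 0.056, limma adjusted p = 0.984). The sum over 10 ESC markers lay between 741 and 764 RPKM in WT and between 669 and 693 RPKM in KO, and 3 of them (*Sox2*, *Utf1* and *Fgf4*) were called lower. Markers of other cells were also measured. The sum over 10 fibroblast markers, of which 7 were tested and all 7 called higher, was 40.3 and 34.5 RPKM in WT libraries and 71.9 and 65.3 RPKM in those of KO. None of the 10 was at 0, and *Vim* gave the larger part of the sum, with 23.7 and 19.99 RPKM in WT and 42.6 and 38.9 RPKM in KO. The 10 primitive endoderm markers, of which 6 were tested and all 6 called higher, summed to 21.9 and 26.0 RPKM in WT and 42.6 and 44.7 RPKM in KO, and *Afp* was at 0 in both KO libraries. The basement membrane genes *Col4a1* (10.6 and 12.9 RPKM in WT) and *Lama1* (8.35 and 9.94 RPKM) gave the larger part of it. The trophoblast markers in the table numbered 9 and summed to 10.8 and 12.3 RPKM in WT and 18.2 and 18.5 RPKM in KO. That sum came mostly from the keratins *Krt8* and *Krt18*, which other epithelia share, while *Elf5* was at 0 in WT and *Cdx2*, *Gata3* and *Hand1* stayed under 0.2 RPKM. All 4 mesoderm markers stayed under 1 RPKM. In bulk RNA, a change in the number of such cells cannot be told apart from a change of RNA per cell.

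Of 9417 genes tested (RPKM above 1 in at least 2 of the 20 libraries), 2283 were higher and 1981 lower in KO at an adjusted p below 0.05, which is 45.3% of the genes (24.2% higher and 21.0% lower). Most of these differences were small. Of the genes called higher, 483 changed by less than 0.25 on the log2 scale and 1036 by between 0.25 and 0.5, and of those called lower 504 and 1070 did. At 2-fold or more the directions were unequal, with 229 genes higher (2.43% of those tested) and 32 lower (0.340%). The median of all genes was 0.014. When each library was centred on its own median, the median of all genes became -0.046 and the calls split into 1802 higher and 2714 lower, so the balance of small changes depends on the scaling, while the counts at 2-fold became 204 and 40. In 73.6% of genes both KO values lay above both WT values or both lay below, so a lack of overlap alone says little here.

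**Figure D1:**
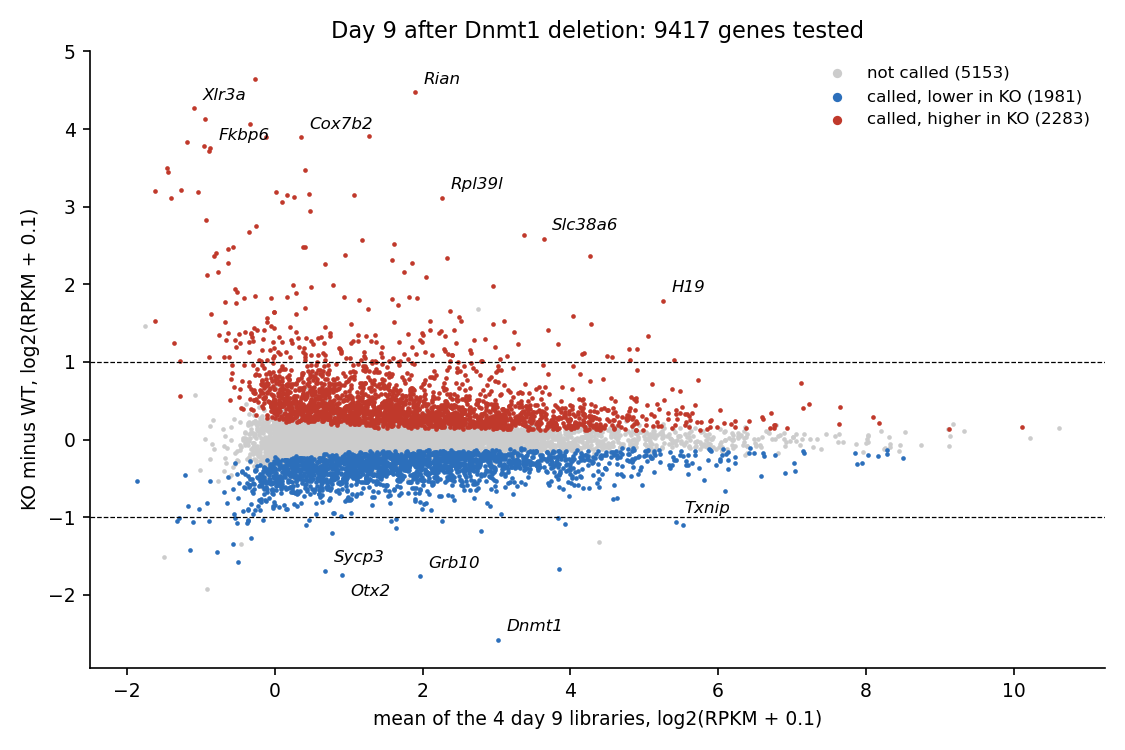
Each point is 1 of 9417 genes, with the mean of the 4 day 9 libraries on the x axis and the difference between KO and WT on the y axis, both on the log2(RPKM + 0.1) scale. The dashed lines mark a 2-fold change, beyond which 229 called genes lie above and 32 below, and most of the largest rises lie at low to middle levels.

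The genes at least 2-fold higher started low. Their median level was 0.835 RPKM in the WT group against 2.97 RPKM in the KO group. Of the 229, 126 (55.02%) had a WT mean under 1 RPKM, compared with 10.6% of all genes tested. Genes that entered the test only through their level in KO had to differ, so this share is a description. The 32 genes at least 2-fold lower had a median of 1.87 RPKM in WT libraries and 0.808 RPKM in those of KO. None of these 261 genes was called at day 0, where no gene was called in either direction and 685 of 9417 had an unadjusted p below 0.05. The count test run with limma's voom on reads recovered from the RPKM called 1 gene higher and 14 lower at day 0, and 251 and 42 genes at 2-fold or more at day 9.

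The largest rises among genes of at least middle level (a mean log2 value of 0 or more, and KO values above both WT values) began with *Rian*, a non-coding RNA of the imprinted Dlk1-Dio3 domain on chromosome 12. It had 0.79 and 0.607 RPKM in WT and 17.9 and 17.3 RPKM in KO (log2 difference 4.48, SE 0.11, limma adjusted p = 2.13e-14). *Cox7b2*, a testis paralog of a cytochrome c oxidase subunit, had 0.235 and 0.228 RPKM in WT and 4.97 and 4.7 RPKM in KO (log2 difference 3.9, SE 0.27, limma adjusted p = 1.13e-08). In WT *Cox7b2* rested on 9 and 3 reads and *Rian* on 458 and 121, and in KO on 116 and 89 and on 6311 and 4943. *Pnma5*, an X-linked gene of the paraneoplastic antigen family, had 0.259 and 0.343 RPKM in WT and 4.52 and 4.12 RPKM in KO (log2 difference 3.47, SE 0.12, limma adjusted p = 3.95e-12). *Efhc2*, X-linked as well and named for its EF-hand domain, had 0.244 and 0.225 RPKM in WT and 3.14 and 2.77 RPKM in KO (log2 difference 3.19, SE 0.22, limma adjusted p = 1.05e-08). *Rhox6*, an X-linked homeobox gene of reproductive tissues, had 0.322 and 0.407 RPKM in WT and 3.93 and 4.14 RPKM in KO (log2 difference 3.16, SE 0.17, limma adjusted p = 3.68e-10). *Usp26*, an X-linked ubiquitin protease gene of the testis, had 0.274 and 0.279 RPKM in WT and 3.21 and 3.3 RPKM in KO (log2 difference 3.16, SE 0.17, limma adjusted p = 4.34e-10). All 4 of these X-linked genes were under 0.5 RPKM in both WT libraries, and their lowest KO value was 2.77 RPKM.

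*Rpl39l*, a testis paralog of ribosomal protein L39, was expressed in WT and rose further, from 1.4 and 1.68 RPKM to 13.7 and 14.4 RPKM (log2 difference 3.12, SE 0.11, limma adjusted p = 4.50e-12). *Klhl13*, an adaptor of a cullin ubiquitin ligase, had 3.89 and 4.22 RPKM in WT and 25.8 and 25.8 RPKM in KO (log2 difference 2.64, SE 0.060, limma adjusted p = 1.11e-14), and *Slc38a6*, of an amino acid transporter family, had 4.88 and 5.07 RPKM in WT and 28.3 and 32.7 RPKM in KO (log2 difference 2.59, SE 0.065, limma adjusted p = 2.25e-14). These 3 genes were well measured in WT, so their rises do not rest on values near the floor. *Aard* had 0.903 and 0.764 RPKM in WT and 5.62 and 5.3 RPKM in KO (log2 difference 2.58, SE 0.16, limma adjusted p = 2.40e-09). *Ddx3y*, the Y-linked copy of an RNA helicase, had 0.329 and 0.284 RPKM in WT and 3.76 and 3.15 RPKM in KO (log2 difference 3.12, SE 0.15, limma adjusted p = 2.05e-10). The other 4 of the 15 largest rises are gene models without established names. Their WT means lay between 0.273 and 0.603 RPKM and their KO means between 3.02 and 9.34 RPKM. They were *Gm14149* (3.91), *Gm17672* (3.15), *Gm3662* (3.06) and *Gm3395* (2.95, on the Y chromosome), each given with its log2 difference.

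**Figure D2:**
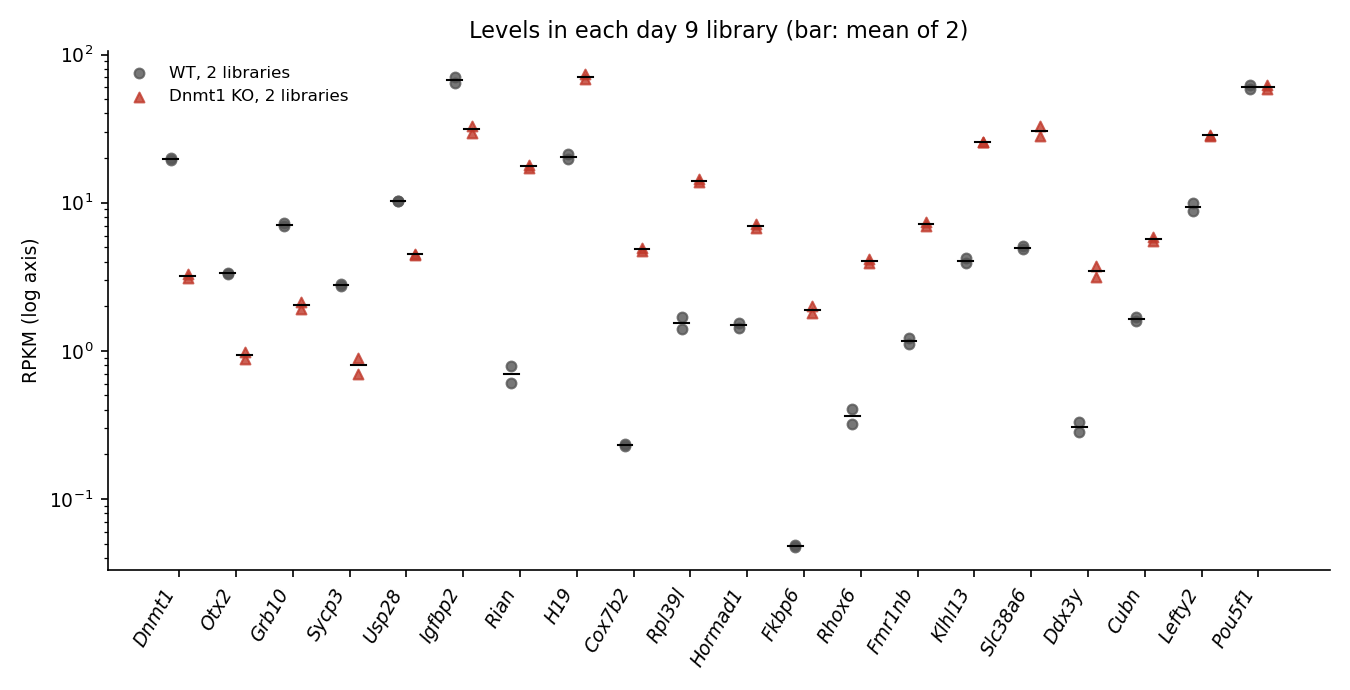
Levels of 20 genes in each of the 4 day 9 libraries, in RPKM on a log axis, with circles for WT, triangles for KO and a bar at the mean of 2. The libraries of a genotype lie close together, and *Pou5f1* is the only gene shown whose genotypes overlap.

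The promoters of some genes that the results turn on are printed here to show how unlike they were in CpG, the site at which DNMT1 acts. Sequences are from RefSeq, build GRCm38.p6, and their coordinates are of that build and not of NCBIM37. Each runs 5′ to 3′ on the strand of the gene, from 250 bases before its start to 50 after, and capitals mark CpG. The first 4 genes rose at day 9, and the last fell.
Hormad1, chr3:95559427-95559726, plus strand: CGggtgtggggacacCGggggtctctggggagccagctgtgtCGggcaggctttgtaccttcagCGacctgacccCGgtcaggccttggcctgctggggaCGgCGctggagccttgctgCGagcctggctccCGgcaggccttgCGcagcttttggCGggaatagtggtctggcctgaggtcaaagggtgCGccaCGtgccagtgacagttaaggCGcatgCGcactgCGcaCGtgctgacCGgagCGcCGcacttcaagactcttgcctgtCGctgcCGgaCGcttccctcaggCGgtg
Cox7b2, chr5:71548156-71548455, minus strand: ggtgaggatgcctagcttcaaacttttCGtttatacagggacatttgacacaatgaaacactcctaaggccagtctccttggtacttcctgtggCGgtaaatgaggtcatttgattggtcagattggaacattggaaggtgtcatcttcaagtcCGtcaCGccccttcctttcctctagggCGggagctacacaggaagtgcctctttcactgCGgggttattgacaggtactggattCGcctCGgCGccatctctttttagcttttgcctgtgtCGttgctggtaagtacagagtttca
Zscan4d, chr7:11166099-11166398, minus strand: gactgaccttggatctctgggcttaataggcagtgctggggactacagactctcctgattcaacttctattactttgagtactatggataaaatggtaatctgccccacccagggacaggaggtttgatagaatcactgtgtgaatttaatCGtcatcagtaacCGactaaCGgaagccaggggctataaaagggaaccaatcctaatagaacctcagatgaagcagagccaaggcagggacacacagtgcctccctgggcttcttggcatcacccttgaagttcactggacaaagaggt
Pnma5, chrX:73037054-73037353, minus strand: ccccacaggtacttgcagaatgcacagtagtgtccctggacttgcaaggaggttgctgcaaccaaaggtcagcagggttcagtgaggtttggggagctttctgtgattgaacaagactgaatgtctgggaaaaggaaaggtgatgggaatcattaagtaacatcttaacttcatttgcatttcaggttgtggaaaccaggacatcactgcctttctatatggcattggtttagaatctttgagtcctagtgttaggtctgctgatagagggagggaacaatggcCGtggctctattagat
Sycp3, chr10:88459337-88459636, plus strand: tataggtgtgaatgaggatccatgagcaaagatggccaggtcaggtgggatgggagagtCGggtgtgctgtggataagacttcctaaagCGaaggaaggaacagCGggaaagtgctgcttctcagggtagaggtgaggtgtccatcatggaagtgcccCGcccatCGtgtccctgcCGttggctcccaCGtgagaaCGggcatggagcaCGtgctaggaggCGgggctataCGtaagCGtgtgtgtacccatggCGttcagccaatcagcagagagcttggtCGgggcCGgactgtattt
*Hormad1*, of the meiotic chromosome axis, had 24 CpG in this window, *Cox7b2* 10, *Zscan4d* 3 and *Pnma5* 1. *Sycp3*, of the synaptonemal complex, had 15 and its RNA fell. The letters CACGTG, the E-box read by several helix-loop-helix factors including the germline repressor complex with MGA, occurred 2 times in the windows of *Hormad1* and *Sycp3* and in none of the other 3.

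A promoter could be matched by symbol for 166 of the 229 genes at least 2-fold higher and for 7318 of the 9417 tested. The median number of CpG was 9.5 in the former and 22 in the latter, and 28.3% against 5.77% had 5 or fewer. The medians also differed within each class of WT level. Genes under 1 RPKM in WT passed the filter through other libraries, which for risers include those of KO. The sets compared in that class were therefore not selected alike. Among genes under 1 RPKM in WT the medians were 9 for those at least 2-fold higher (92 promoters) and 21 for those not called (359 promoters), and among genes of at least 1 RPKM they were 10 (74 promoters) and 22 (3632 promoters). The 24 promoters of genes at least 2-fold lower had a median of 15.5. Searched on both strands, CACGTG was present in 9.64% of the promoters of the 2-fold risers, 11.21% of those of all tested genes and 7.15% of all 32851 promoters of the same length. TCCCGC, searched as itself and as GCGGGA on the other strand, a motif of E2F factors, was present in 24.7% of the risers, 38.1% of tested genes and 19.98% of all promoters. Neighbouring matches of the 2 motifs can share 1 base. These shares describe letters and say nothing of binding.

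**Figure D3:**
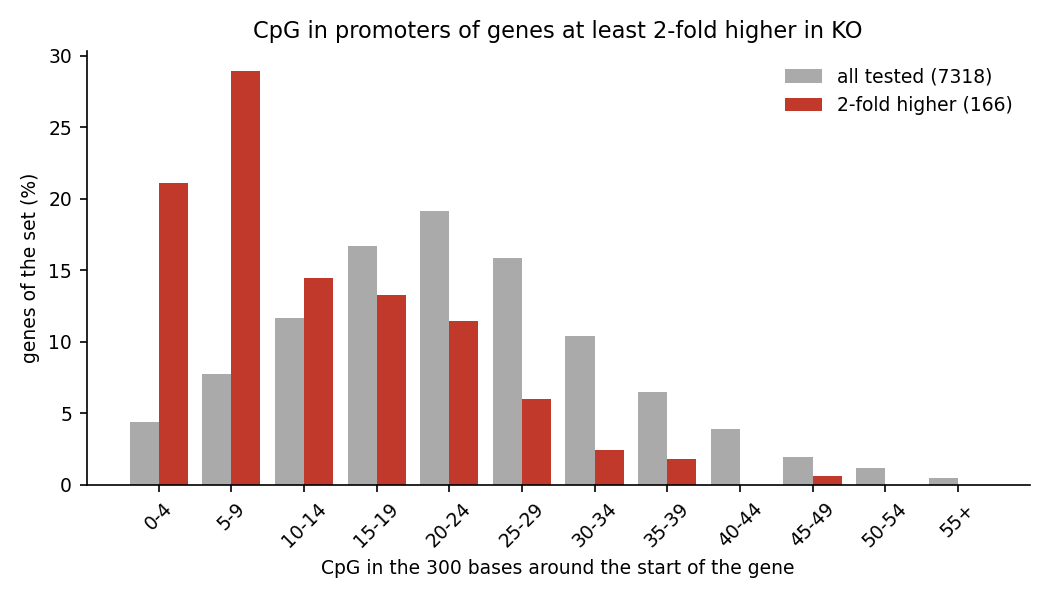
Distribution of the number of CpG in the 300 bases around the start of the gene, as the share of genes in each class of 5. Grey bars are all tested genes with a promoter (7318) and red bars the 166 at least 2-fold higher in KO, whose median is 9.5 against 22.

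Imprinted genes are expressed from 1 parental allele under methylation set in the germ line. Of 36 tested, 21 were higher and 3 lower (background 24.2% and 21.0%), 10 and 1 of them by 2-fold or more, with a median of 0.37 against 0.014 for all genes. This background, the shares of all tested genes, holds for the tested members of every list below. Counts near it are not read as results about a list. The 3 largest differences of the list (*Rian*, *Mirg* and *Rtl1*) lay in the Dlk1-Dio3 domain, where 5 neighbouring genes at least 2-fold higher (*Meg3*, *Gm17639*, *Rtl1*, *Rian* and *Mirg*) covered chromosome 12 from 110779211 to 110987665 of NCBIM37. *Meg3*, the first of its maternally expressed non-coding RNAs, had 0.252 and 0.196 RPKM in WT and 2.11 and 2.05 RPKM in KO (log2 difference 2.76, SE 0.14, limma adjusted p = 3.10e-10). *Mirg*, a host of microRNAs at the far end, had 0.0846 and 0.104 RPKM in WT and 3.14 and 3.15 RPKM in KO (log2 difference 4.06, SE 0.20, limma adjusted p = 1.65e-10). *Rtl1*, a protein of retrotransposon origin expressed from the paternal allele with a maternal antisense transcript over it, had 0.0534 and 0.0259 RPKM in WT and 1.85 and 1.78 RPKM in KO (log2 difference 3.78, SE 0.22, limma adjusted p = 1.17e-09). Whether the table was counted by strand is not given in the sources used here, so *Rtl1* and its antisense RNA cannot be told apart. *Dlk1*, the paternally expressed gene at the other end, was too low to be tested, with 0.0375 and 0.0145 RPKM in WT and 0.127 and 0.0759 RPKM in KO.

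Outside this domain the largest difference of the list was that of the X-linked *Xlr3b* (3.72), described with its family below. *H19*, a maternally expressed non-coding RNA, had 21.2 and 19.6 RPKM in WT and 73.4 and 68 RPKM in KO (log2 difference 1.79, SE 0.056, limma adjusted p = 6.23e-13), and its reciprocally imprinted neighbour *Igf2* had 1.14 and 1.16 RPKM in WT and 1.7 and 1.44 RPKM in KO (log2 difference 0.41, SE 0.10, limma adjusted p = 0.00243). Both rose, the former by far more. Paternally expressed genes that rose included *Impact* (1.39), *Peg10* (1.3), *Peg3* (1.23), *Mest* (0.88), *Ndn* (0.85) and *Snrpn* (0.59). *Grb10*, an adaptor that restrains insulin and IGF receptor signalling, went the other way, with 7.28 and 6.91 RPKM in WT and 2.12 and 1.93 RPKM in KO (log2 difference -1.76, SE 0.080, limma adjusted p = 8.50e-11). Its neighbours on chromosome 11 did not share a direction, since *Ddc* had 0.503 and 0.567 RPKM in WT and 1.5 and 1.34 RPKM in KO (log2 difference 1.26, SE 0.12, limma adjusted p = 5.14e-07) and *Cobl*, an actin nucleator, had 1.75 and 2.02 RPKM in WT and 0.792 and 0.949 RPKM in KO (log2 difference -1.03, SE 0.12, limma adjusted p = 3.49e-06). *Cdkn1c* and *Phlda2*, of the Kcnq1 domain, did not pass the test (0.13, limma adjusted p = 0.306, and -0.18, limma adjusted p = 0.182). Of the 28 imprinted genes in the table that were too low to be tested, 13 had both KO values above both WT values and 3 had both below, and none reached 1 RPKM. Among tested genes, 38.8% lay above in this way and 34.8% below.

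Germline genes were called in both directions. Of 13 tested genes of germline genome defence (30 in the table), 7 were higher and 1 lower. *Fkbp6*, a co-chaperone of the piRNA pathway, had 0.049 and 0.0475 RPKM in WT and 2.01 and 1.79 RPKM in KO, which was 6 and 2 reads in WT and 150 and 108 in KO (log2 difference 3.75, SE 0.24, limma adjusted p = 4.36e-09). *Dazl*, an RNA-binding protein of germ cells, had 1.2 and 1.3 RPKM in WT and 4.22 and 4.19 RPKM in KO (log2 difference 1.68, SE 0.090, limma adjusted p = 4.65e-10). *Tex19.1*, which restrains retrotransposons in germ cells, had 4.01 and 4.15 RPKM in WT and 9.53 and 8.95 RPKM in KO (log2 difference 1.16, SE 0.062, limma adjusted p = 4.34e-10). *Tdrd12*, a Tudor protein of the piRNA pathway, rose by 1.08 and *Morc1*, needed to silence transposons in the male germ line, by 0.84. *Dnmt3l*, the cofactor of de novo methylation, had 23.5 and 22.9 RPKM in WT and 34.1 and 34.1 RPKM in KO (log2 difference 0.55, SE 0.056, limma adjusted p = 1.00e-06). *Ddx4*, the helicase VASA, was lower, with 1.49 and 1.36 RPKM in WT and 0.994 and 1.005 RPKM in KO (log2 difference -0.47, SE 0.11, limma adjusted p = 0.00182). Its promoter window held 38 CpG. *Mael*, *Rnf17*, *Tex15*, *Gtsf1l* and *Mybl1* did not pass the test. Without the filter on low values, 11 of 30 were higher and 5 lower, compared with 16.7% and 11.3% of 21211 genes.

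Meiotic genes split evenly, with 7 of 14 tested higher and 6 lower. *Hormad1* had 1.42 and 1.55 RPKM in WT and 6.76 and 7.22 RPKM in KO (log2 difference 2.16, SE 0.12, limma adjusted p = 4.65e-10). *Stra8*, the gene induced by retinoic acid at entry into meiosis, had 0.353 and 0.594 RPKM in WT and 1.64 and 1.67 RPKM in KO (log2 difference 1.64, SE 0.19, limma adjusted p = 5.01e-06). *Smc1b*, the meiotic cohesin subunit, had 0.641 and 0.825 RPKM in WT and 1.64 and 1.95 RPKM in KO (log2 difference 1.19, SE 0.14, limma adjusted p = 4.17e-06), and *Syce1*, of the central element of the synaptonemal complex, rose by 0.85. *Sycp3*, of its lateral element, fell from 2.74 and 2.83 RPKM in WT to 0.8996 and 0.702 RPKM in KO (log2 difference -1.69, SE 0.14, limma adjusted p = 1.25e-07). Lower by less were *Stag3* (-0.33) and *Rec8* (-0.38), subunits of meiotic cohesin, *Dmc1* (-0.35), the meiotic recombinase, and *Tex11* (-0.49). Genes of the synaptonemal complex therefore stood on both sides.

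Among testis paralogs of housekeeping genes, 4 of 12 tested were higher and 5 lower, with a median of -0.21. *Cox7b2* and *Rpl39l* were among the largest rises. The sign of the list median depended on the filter. Without it the median was 0.060, against 0.017 for all genes. Then 10 of 34 were higher and 5 lower, compared with 16.7% and 11.3% of 21211 genes. *Rpl10l*, the paralog of ribosomal protein L10, had 1.8 and 1.61 RPKM in WT and 4.14 and 3.9 RPKM in KO (log2 difference 1.19, SE 0.13, limma adjusted p = 1.44e-06), and *Tuba3a*, an alpha tubulin, rose by 0.72. *Cox6b2*, another testis subunit of cytochrome c oxidase, had 5.11 and 5.23 RPKM in WT and 2.95 and 3.53 RPKM in KO and was lower (log2 difference -0.66, SE 0.16, limma adjusted p = 0.00294), as were *Cyct* (-0.23), the testis cytochrome c, and *Tcp11* (-0.83).

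On the X chromosome, families of genes active in germ cells were represented by 6 tested genes of 44 rows in the table, all called higher. Of the 6, 3 had a WT mean under 1 RPKM and so passed the filter on low values through other libraries. Their count therefore has no weight of its own. The 6 differences were very unlike in size. *Xlr3a*, of a lymphocyte-regulated multicopy family with imprinted members, had 0.014 and 0 RPKM in WT and 2.01 and 1.92 RPKM in KO, which was 4 and 0 reads in WT and 350 and 271 in KO (log2 difference 4.27, limma adjusted p = 7.95e-10). A difference from values this close to 0 depends on the pseudocount. Its neighbours *Xlr3b*, counted above with the imprinted genes, and *Xlr3c* differed by 3.72 and 4.13, and since the 3 copies are nearly identical, reads may be split between them. With *Pnma5* they formed a run of 4 genes at least 2-fold higher on chromosome X, from 70279327 to 70510729. *Fmr1nb*, a cancer/testis antigen, had 1.12 and 1.23 RPKM in WT and 7.43 and 6.996 RPKM in KO (log2 difference 2.52, SE 0.12, limma adjusted p = 1.50e-10). *Trap1a* had 13.1 and 14.2 RPKM in WT and 17.6 and 16.1 RPKM in KO (log2 difference 0.30, SE 0.057, limma adjusted p = 4.42e-04) and *Mageb16* 5.17 and 4.97 RPKM in WT and 5.55 and 6.22 RPKM in KO (log2 difference 0.21, SE 0.078, limma adjusted p = 0.0369). Both were expressed in WT and rose little. Of the 38 members too low to be tested, 15 were at 0 in all 4 libraries and so could not separate. In 12 both KO values lay above both WT values and in 1 both lay below, and none of the 38 reached 1 RPKM. Among tested genes 38.8% lay above and 34.8% below, but those genes are not silent, so the shares are not directly comparable. The Rhox homeobox genes were mostly silent in both genotypes. Of 29 in the table, only *Rhox6* and its neighbour *Rhox9* were tested. The latter had 0.0711 and 0.127 RPKM in WT and 1.22 and 1.37 RPKM in KO (log2 difference 2.82, SE 0.20, limma adjusted p = 1.70e-08), and 20 were at 0 in all 4 libraries.

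Genes of the 2-cell embryo, which a small share of ESCs switch on at any time, were higher in KO in 6 of 7 tested cases. Of the 7, 5 were under 1 RPKM in both WT libraries and so passed the filter on low values through other libraries, which leaves their count without weight of its own. *Zscan4d*, which is needed to maintain telomeres in ESCs, had 0.0355 and 0 RPKM in WT and 1.69 and 1.45 RPKM in KO, 5 and 0 reads in WT and 145 and 101 in KO (log2 difference 3.84, limma adjusted p = 7.84e-10). *Zscan4c* and *Zscan4f* differed by 3.44 and 3.11, and *Gm5662* and *Gm8300*, of a multicopy family, by 3.22 and 3.2. In WT all 5 were under 0.1 RPKM, on at most 9 reads a library, so their fitted differences depend on the pseudocount, and near-identical copies may share reads. *Eif1a* rose slightly (log2 difference 0.24, SE 0.053, limma adjusted p = 0.00154) and *Zfp51* did not pass the test. Of the 19 members too low to be tested, 17 had both KO values above both WT values and the highest value was 0.543 RPKM. Among tested genes 38.8% lay above in this way, but those genes are not silent, so the shares are not directly comparable. Without the filter, 23 of 25 were called higher and none lower, compared with 16.7% and 11.3% of 21211 genes. In the Prame family, *Pramef12* had 2.52 and 2.13 RPKM in WT and 3.61 and 3.62 RPKM in KO (log2 difference 0.62, SE 0.072, limma adjusted p = 4.35e-06) and *Pramef8* 1.84 and 1.81 RPKM in WT and 1.85 and 1.82 RPKM in KO (limma adjusted p = 0.923).

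Both tested genes of the Y-linked list were higher in KO. Beside *Ddx3y*, *Eif2s3y*, the Y copy of a translation initiation factor subunit, had 0.7501 and 0.79 RPKM in WT and 3.52 and 3.17 RPKM in KO (log2 difference 1.99, SE 0.083, limma adjusted p = 2.85e-11). *Uty*, a histone demethylase homolog, had 0.178 and 0.15 RPKM in WT and 0.885 and 0.849 RPKM in KO, and *Kdm5d*, a histone demethylase, 0.0335 and 0.02997 RPKM in WT and 0.321 and 0.282 RPKM in KO. These 2 were too low to be tested, with both KO values above both WT values. The genotypes had started alike at day 0, with 0.666 and 0.644 RPKM of *Ddx3y* in WT and 0.662 and 0.649 RPKM in KO. By day 9 the WT libraries had come down to 0.329 and 0.284 RPKM while the KO libraries had gone up. *Eif2s3y* likewise had 1.68 and 1.74 RPKM in WT at day 0, and 0.7501 and 0.79 RPKM at day 9. The share of cells that carry a Y chromosome in each culture was not measured.

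Of 22 naive pluripotency genes tested, 6 were higher (27.3%), 3 lower (13.6%) and 13 not called, with a median of -0.067. Among all tested genes 24.2% were higher and 21.0% lower, so nothing is read from the counts of this list. *Nanog* had 23.8 and 25.7 RPKM in WT and 27.1 and 31.2 RPKM in KO (log2 difference 0.23, SE 0.11, limma adjusted p = 0.0843), and *Esrrb* 8.998 and 9.71 RPKM in WT and 8.06 and 8.06 RPKM in KO (log2 difference -0.21, SE 0.094, limma adjusted p = 0.0771). Neither passed the test. Higher were *Fbxo15* (0.84), *Gbx2* (0.53), *Nr0b1* (0.45), *Prdm14* (0.42), *Stat3* (0.20) and *Dppa3* (0.19), and lower were *Fgf4* (-0.47), *Klf4* (-0.41) and *Tcl1* (-0.31). Among 17 core pluripotency genes 2 were higher (11.8%) and 3 lower (17.6%), both below those background shares. *Dppa2*, a chromatin factor that primes 2-cell and germline promoters, had 6.19 and 5.43 RPKM in WT and 11.21 and 10.2 RPKM in KO (log2 difference 0.87, SE 0.070, limma adjusted p = 7.15e-08). *Gdf3* rose by 0.39. *Sox2* had 59 and 61.6 RPKM in WT and 47.4 and 46.5 RPKM in KO (log2 difference -0.36, SE 0.051, limma adjusted p = 3.35e-05), and *Utf1* 23.2 and 24 RPKM in WT and 14.9 and 15.6 RPKM in KO (log2 difference -0.63, SE 0.12, limma adjusted p = 4.15e-04), both lower.

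Genes of the formative and primed epiblast gave 3 higher (23.1%) and 2 lower (15.4%) of 13, with large differences in a pair of them. Among all tested genes 24.2% were higher and 21.0% lower, so nothing is read from these counts. *Otx2*, the homeobox factor of the epiblast after implantation, had 3.36 and 3.32 RPKM in WT and 0.984 and 0.876 RPKM in KO (log2 difference -1.74, SE 0.081, limma adjusted p = 9.88e-11). *Lefty2*, a secreted inhibitor of Nodal, had 8.74 and 9.97 RPKM in WT and 28.2 and 28.6 RPKM in KO (log2 difference 1.6, SE 0.077, limma adjusted p = 1.65e-10), and *Nodal* itself 6.3 and 6.69 RPKM in WT and 9.48 and 9.07 RPKM in KO (log2 difference 0.51, SE 0.057, limma adjusted p = 2.99e-06). The ligand and its inhibitor rose while *Otx2* fell. *Zic5* was lower (-0.42), and *Pou3f1*, *Dnmt3a* and *Dnmt3b* did not pass the test.

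Primitive endoderm genes had the highest median of the lists with at least 20 tested members. Of 20 tested, 17 were higher, 8 of them at least 2-fold, and 1 was lower, with a median of 0.95 against 0.014 for all genes. The largest difference was in *Cubn*, the endocytic receptor cubilin, which had 1.58 and 1.7 RPKM in WT and 5.54 and 5.83 RPKM in KO (log2 difference 1.73, SE 0.10, limma adjusted p = 5.98e-10). Its partners rose with it: *Lrp2*, megalin, had 2.92 and 2.72 RPKM in WT and 7.71 and 7.48 RPKM in KO (log2 difference 1.4, SE 0.075, limma adjusted p = 4.65e-10), *Amn*, amnionless, 0.512 and 0.586 RPKM in WT and 1.09 and 1.38 RPKM in KO (log2 difference 1.03, SE 0.15, limma adjusted p = 5.24e-05), and *Dab2*, their adaptor, 0.558 and 0.633 RPKM in WT and 1.51 and 1.6 RPKM in KO (log2 difference 1.25, SE 0.11, limma adjusted p = 2.00e-07). *Gata6*, the factor that directs this lineage, had 0.469 and 0.502 RPKM in WT and 0.988 and 1.09 RPKM in KO (log2 difference 0.96, SE 0.11, limma adjusted p = 5.81e-06), *Gata4* 0.51 and 0.61 RPKM in WT and 0.872 and 0.988 RPKM in KO (log2 difference 0.64, SE 0.13, limma adjusted p = 6.06e-04), and *Pdgfra*, its surface marker, 0.978 and 0.928 RPKM in WT and 2.13 and 1.89 RPKM in KO (log2 difference 0.999, SE 0.10, limma adjusted p = 1.19e-06). The basement membrane genes *Col4a1* (0.95), *Col4a2* (0.81), *Lama1* (0.65), *Lamb1* (0.45) and *Sparc* (0.78) were higher too. *Apoe* was lower (log2 difference -0.20, SE 0.061, limma adjusted p = 0.0123), and *Lamc1* and *Cited2* did not pass the test. In 14 of the 20 genes the difference between genotypes was larger at day 9 than at day 3 by the test of that difference, and in none smaller. Among all tested genes that test called 7.90% upward and 6.21% downward. In *Cubn* this did not come from a rise in KO. It had 5.79 and 6.41 RPKM in WT at day 3 and 1.58 and 1.7 RPKM at day 9, while KO had 7.06 and 5.69 RPKM at day 3 and 5.54 and 5.83 RPKM at day 9. KO therefore stayed near its level of day 3 and WT came down. The sum of the primitive endoderm markers, too, was 42.7 and 45.5 RPKM in WT and 54.3 and 48.8 RPKM in KO at day 3. At day 9 this sum, for the larger part *Col4a1* and *Lama1*, was therefore lower in both genotypes, and by more in WT.

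Of 17 trophoblast and simple epithelial genes tested, 13 were higher and none lower (median 0.77). *Krt8* had 4.47 and 5.1 RPKM in WT and 8.64 and 9.17 RPKM in KO (log2 difference 0.88, SE 0.087, limma adjusted p = 7.61e-07), *Krt18* rose by 0.50 and *Krt19* by 0.78. *Tcfap2c*, which encodes AP-2 gamma, had 1.6 and 1.96 RPKM in WT and 2.99 and 3.17 RPKM in KO (log2 difference 0.77, SE 0.11, limma adjusted p = 3.38e-05), and *Lgals3*, galectin 3, 1.29 and 1.2 RPKM in WT and 3.2 and 3.07 RPKM in KO (log2 difference 1.27, SE 0.12, limma adjusted p = 5.81e-07). *Sct*, secretin, had 0.265 and 0.077 RPKM in WT and 0.9995 and 1.02 RPKM in KO (log2 difference 2.13, SE 0.28, limma adjusted p = 1.47e-05). The regulators *Tead4* and *Ets2* and the claudins *Cldn4* and *Cldn6* did not pass the test, and *Cdx2*, *Eomes*, *Gata3* and *Elf5* were too low to be tested. *Rhox6* and *Peg10* are members of this list as well as of those above.

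Genes of the actin cytoskeleton and targets of SRF and YAP were higher in 22 of 31 tested cases, 9 at least 2-fold, and lower in none (median 0.46). *Acta2*, smooth muscle actin, had 5.23 and 4.73 RPKM in WT and 15.8 and 13.3 RPKM in KO (log2 difference 1.52, SE 0.13, limma adjusted p = 9.92e-08). *S100a4* had 12.6 and 10.4 RPKM in WT and 34.9 and 29.9 RPKM in KO (log2 difference 1.49, SE 0.12, limma adjusted p = 7.05e-08), and its neighbours on chromosome 3, *S100a6* and *S100a13*, formed with it and *Npr1* a run of 4 genes at least 2-fold higher. *Lmna*, which encodes lamins A and C, had 3.33 and 3.02 RPKM in WT and 7.76 and 6.81 RPKM in KO (log2 difference 1.17, SE 0.080, limma adjusted p = 9.97e-09), and *Anxa1* rose by 1.14, *Tagln* by 1.03 and *Myl9* by 1.1. *Actb* had 183 and 165 RPKM in WT and 242 and 223 RPKM in KO (log2 difference 0.42, SE 0.058, limma adjusted p = 2.62e-05). *Ctgf*, *Ankrd1* and *Srf* did not pass the test.

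Fibroblast markers moved in the same direction, with 15 of 19 higher and 3 lower (median 0.77). *Col3a1* had 1.29 and 0.965 RPKM in WT and 3.56 and 3.07 RPKM in KO (log2 difference 1.48, SE 0.16, limma adjusted p = 1.36e-06), *Vim* 23.7 and 19.99 RPKM in WT and 42.6 and 38.9 RPKM in KO (log2 difference 0.90, SE 0.092, limma adjusted p = 1.03e-06) and *Ccl2*, a chemokine, 0.659 and 0.542 RPKM in WT and 2.28 and 1.84 RPKM in KO (log2 difference 1.62, SE 0.26, limma adjusted p = 9.42e-05). *Col1a1* rose by 0.47 and *Thy1* by 0.45. *Fn1* had 15.5 and 18.1 RPKM in WT and 13 and 13.1 RPKM in KO (log2 difference -0.36, SE 0.071, limma adjusted p = 6.39e-04), and *Fbln1* (-0.32) and *Mmp2* (-0.27) were also lower. Collagen genes are expressed by feeder fibroblasts and, for *Col4a1*, by endoderm. The fibroblast marker sum at day 0 lay between 30.2 and 36.3 RPKM in all 4 libraries. On day 11, whose libraries differ in exon share and are compared only with each other, the median of the cytoskeletal list was 0.49 and that of the fibroblast list 0.21. *Col3a1* did not pass the test on that day (log2 difference 0.058, SE 0.18, limma adjusted p = 0.828), when its highest value was 0.0118 RPKM. The part that fibroblasts or their share had in these differences was not tested.

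**Figure D4:**
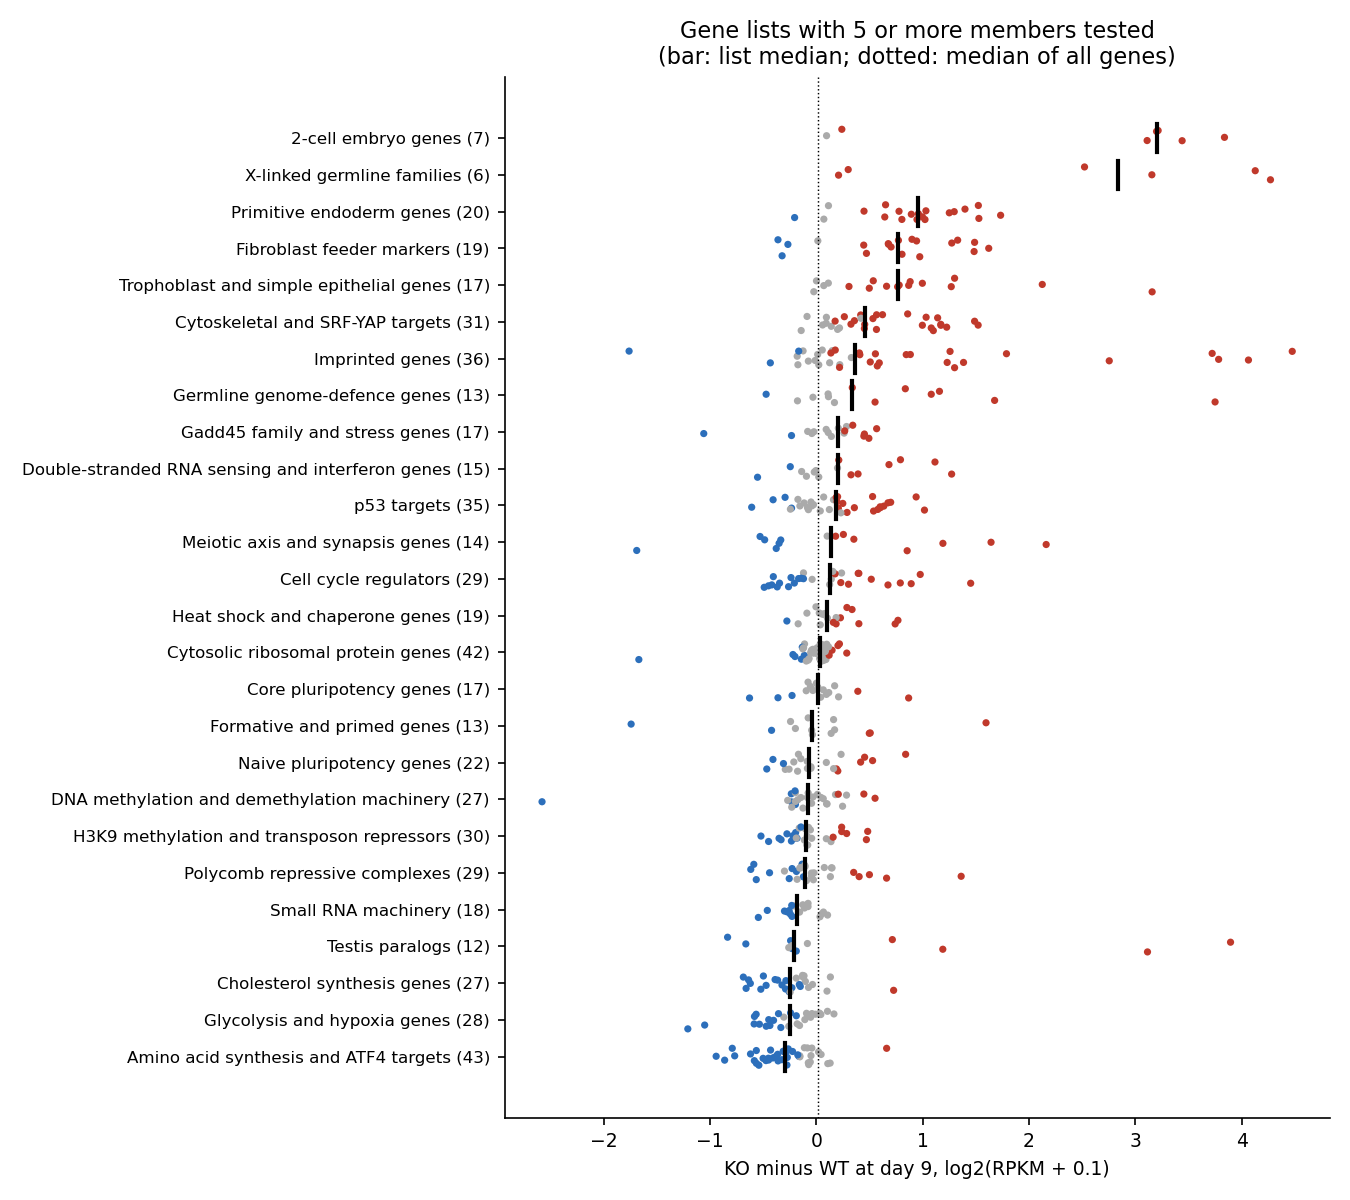
Difference between KO and WT at day 9 on the log2(RPKM + 0.1) scale for the tested members of each list with 5 or more (number in brackets), with a bar at the list median and a dotted line at the median of all genes, 0.014. Red points were called higher, blue points lower and grey points not called. Endoderm, fibroblast and trophoblast lists lie to the right, and the lists of amino acid synthesis, glycolysis and cholesterol synthesis to the left.

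Targets of p53 were higher in 17 of 35 tested cases and lower in 4 (median 0.19). *Cdkn1a*, the cell cycle inhibitor p21, had 1.75 and 1.96 RPKM in WT and 2.86 and 3.18 RPKM in KO (log2 difference 0.67, SE 0.12, limma adjusted p = 3.70e-04), *Mdm2*, the ligase that degrades p53, 7.49 and 8.15 RPKM in WT and 11.9 and 12 RPKM in KO (log2 difference 0.60, SE 0.056, limma adjusted p = 3.82e-07), and *Ccng1*, cyclin G1, 23.7 and 25.18 RPKM in WT and 35.9 and 34.8 RPKM in KO (log2 difference 0.53, SE 0.043, limma adjusted p = 8.75e-08). *Perp* was the only member at least 2-fold higher (log2 difference 1.02, SE 0.086, limma adjusted p = 1.25e-07), followed by *Plk3* (0.94) and *Phlda3* (0.70). *Trp53* itself had 2.01 and 2.12 RPKM in WT and 1.63 and 1.83 RPKM in KO and did not pass the test (log2 difference -0.24, SE 0.18, limma adjusted p = 0.274), and the apoptotic gene *Bbc3* was lower (-0.41). At day 3 the same list had 21 members higher and 1 lower, compared with 14.3% and 11.8% of all tested genes. By the test between days, 9 were lower at day 9 relative to day 3 and none higher, compared with 6.21% and 7.90% of all tested genes.

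Cell cycle genes were called in both directions, 11 higher and 12 lower of 29 (median 0.13). The inhibitors *Cdkn2a* and *Cdkn2b* had 1.02 and 0.738 RPKM in WT and 2.5 and 2.59 RPKM in KO (log2 difference 1.45, SE 0.16, limma adjusted p = 2.99e-06) and 0.924 and 0.827 RPKM in WT and 1.85 and 1.36 RPKM in KO (log2 difference 0.79, SE 0.14, limma adjusted p = 2.09e-04). The G1 cyclins *Ccnd1*, *Ccnd2*, *Ccnd3* and *Ccne1* were higher, *Ccnd2* by 0.98, *Ccnd1* by 0.89, *Ccnd3* by 0.52 and *Ccne1* by 0.39. *Bub1* (-0.49), *Plk1* (-0.42), *Mki67* (-0.40) and *Aurka* (-0.35) were lower. *Cdkn1b*, p27, was lower as well (log2 difference -0.45, SE 0.070, limma adjusted p = 8.50e-05). Of 19 heat shock and chaperone genes, 8 were higher and 1 lower, with *Hspb1* at 42 and 39.1 RPKM in WT and 68.2 and 69.9 RPKM in KO (log2 difference 0.77, SE 0.044, limma adjusted p = 1.12e-09) and *Hspa8* higher by 0.40, while *Hsp90aa1* did not pass the test. Among 17 stress genes 6 were higher (35.3%, against 24.2% of all tested genes) and 2 lower (11.8% against 21.0%), *Txnip* by the most.

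Genes of amino acid synthesis and uptake under ATF4 were lower in 29 of 43 tested cases and higher in 1 (*Cebpb*), with a median of -0.29. *Asns*, asparagine synthetase, had 30.4 and 31.5 RPKM in WT and 16.3 and 20.3 RPKM in KO (log2 difference -0.77, SE 0.084, limma adjusted p = 2.42e-06). *Pycr1*, of proline synthesis, had 2.13 and 2.49 RPKM in WT and 1.11 and 1.19 RPKM in KO (log2 difference -0.94, SE 0.10, limma adjusted p = 2.32e-06), and *Slc1a5*, a glutamine transporter, 9.85 and 10.3 RPKM in WT and 5.37 and 5.63 RPKM in KO (log2 difference -0.86, SE 0.069, limma adjusted p = 6.75e-08). The serine pathway fell together, with *Phgdh* at -0.45, *Psat1* at -0.62 and *Psph* at -0.54, as did aminoacyl-tRNA synthetases such as *Cars* (-0.50), *Yars* (-0.45) and *Sars* (-0.41). *Atf4* itself did not pass the test, with 43.8 and 43.4 RPKM in WT and 44.2 and 45.8 RPKM in KO (log2 difference 0.046, SE 0.058, limma adjusted p = 0.542). At day 3, 34 of the 43 were already lower and 1 was higher, compared with 11.8% and 14.3% of all tested genes.

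Glycolysis and hypoxia genes were lower in 14 of 28 tested cases and higher in none (median -0.25). *Pfkm*, a phosphofructokinase, had 6.73 and 6.93 RPKM in WT and 3.19 and 3.3 RPKM in KO (log2 difference -1.05, SE 0.068, limma adjusted p = 4.52e-09), and *Aldoc*, an aldolase, 2.64 and 2.36 RPKM in WT and 0.932 and 1.12 RPKM in KO (log2 difference -1.21, SE 0.13, limma adjusted p = 1.91e-06). *Gpi1* (-0.58), *Pfkl* (-0.58) and *Pgk1* (-0.47) fell, while *Ldha*, *Slc2a1* and *Pgam1* did not pass the test. At day 3, 23 members of this list were lower, compared with 11.8% of all tested genes, and its median was -0.41. By the test between days, the difference was higher at day 9 in 7 members and lower in 2, compared with 7.90% and 6.21% of all tested genes. Cholesterol synthesis genes were lower in 16 of 27 cases and higher in 1, *Ebp* (median -0.25). *Dhcr7* (-0.69) and *Lss* (-0.66), enzymes of this pathway, fell. Of 42 cytosolic ribosomal protein genes, 5 were higher (11.9%) and 6 lower (14.3%), both below the shares of all tested genes (24.2% and 21.0%). Their median was 0.035 (-0.026 with each library centred on its median). Of these *Rps16* had 23.4 and 28 RPKM in WT and 7.05 and 9.04 RPKM in KO (log2 difference -1.67, SE 0.42, limma adjusted p = 0.00393), a value that is uncertain because processed copies of the gene may share its reads. Its difference was already -0.96 at day 0, the lowest of all tested genes on that day although it did not pass the test (limma adjusted p = 0.668), and it was 0.0098 at day 11 (limma adjusted p = 0.989).

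Among genes of the chromatin machinery, differences of 2-fold or more were seen in *Dnmt1* and *Bmi1* alone of the lists described here. Of 27 tested genes of DNA methylation and demethylation, 3 were higher and 5 lower. *Uhrf1*, which brings DNMT1 to hemimethylated DNA, had 18.1 and 17.06 RPKM in WT and 21.3 and 19.3 RPKM in KO (log2 difference 0.21, SE 0.065, limma adjusted p = 0.0157). *Tet1* (-0.20) and *Tet2* (-0.23), which oxidize methylcytosine, were lower, and *Dnmt3a* (-0.20, limma adjusted p = 0.222) and *Dnmt3b* (-0.076, limma adjusted p = 0.594) did not pass the test. Among 30 rows for H3K9 methylation and transposon repression, 6 were higher and 11 lower, none by 2-fold. *Trim28*, KAP1, had 71.6 and 66.6 RPKM in WT and 85 and 78.2 RPKM in KO (log2 difference 0.24, SE 0.052, limma adjusted p = 0.00149), *Setdb1* 7.71 and 7.21 RPKM in WT and 6.95 and 6.2 RPKM in KO (log2 difference -0.18, SE 0.058, limma adjusted p = 0.018), *Zfp57*, which guards imprints, 28.8 and 31.2 RPKM in WT and 21.7 and 22.1 RPKM in KO (log2 difference -0.45, SE 0.060, limma adjusted p = 2.08e-05), and *Mphosph8*, of the HUSH complex, 9.43 and 9.12 RPKM in WT and 6.56 and 6.32 RPKM in KO (log2 difference -0.52, SE 0.064, limma adjusted p = 8.23e-06). KAP1 rose and its H3K9 methyltransferase fell, both slightly.

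Of 29 Polycomb genes, 5 were higher (17.24%) and 9 lower (31.0%). These shares, and those of the lists on DNA and H3K9 methylation, stand beside 24.2% and 21.0% of all tested genes, and nothing is read from the counts. *Bmi1*, a PRC1 subunit, had 0.423 and 0.373 RPKM in WT and 1.26 and 1.1 RPKM in KO (log2 difference 1.36, SE 0.12, limma adjusted p = 3.38e-07), and *Jarid2*, of PRC2, 9.39 and 8.43 RPKM in WT and 12 and 10.8 RPKM in KO (log2 difference 0.35, SE 0.068, limma adjusted p = 5.26e-04). *Phc1* (-0.62), *Cbx7* (-0.59) and *Pcgf2* (-0.56), other PRC1 subunits, were lower, and the PRC2 core genes *Ezh2*, *Suz12* and *Eed* did not pass the test. Small RNA machinery had 8 of 18 genes lower and none higher (median -0.18). *Prkra*, a partner of DICER, had 2.64 and 2.92 RPKM in WT and 1.8 and 1.95 RPKM in KO (log2 difference -0.54, SE 0.091, limma adjusted p = 1.56e-04), *Drosha* 6.22 and 5.86 RPKM in WT and 5.18 and 5.09 RPKM in KO (log2 difference -0.23, SE 0.076, limma adjusted p = 0.0205) and *Tnrc6c*, a GW182 protein, 1.83 and 1.97 RPKM in WT and 1.34 and 1.37 RPKM in KO (log2 difference -0.46, SE 0.074, limma adjusted p = 1.07e-04). *Dicer1* had 2.94 and 2.92 RPKM in WT and 2.66 and 2.76 RPKM in KO and did not pass the test (log2 difference -0.11, SE 0.067, limma adjusted p = 0.188), nor did *Eif2c2*, which encodes AGO2 (-0.16, limma adjusted p = 0.221).

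Of 15 tested genes of double-stranded RNA sensing and interferon response, 7 were higher and 2 lower. Those that rose present antigen or respond to interferon: *H2-D1* and *H2-K1*, of class I histocompatibility, had 1.1 and 1.22 RPKM in WT and 2.62 and 2.64 RPKM in KO (log2 difference 1.12, SE 0.11, limma adjusted p = 7.12e-07) and 3.35 and 3.22 RPKM in WT and 5.86 and 5.66 RPKM in KO (log2 difference 0.79, SE 0.071, limma adjusted p = 2.40e-07), and *Ifi35* 0.377 and 0.476 RPKM in WT and 1.26 and 1.08 RPKM in KO (log2 difference 1.27, SE 0.19, limma adjusted p = 6.58e-05). *Tap1* (0.68), *B2m* (0.39), *Ifitm3* (0.33) and *Ifitm1* (0.21) were also higher. The sensors and their adaptor, *Ddx58* (RIG-I), *Eif2ak2* (PKR) and *Mavs*, did not pass the test, and *Stat2* was lower (log2 difference -0.55, SE 0.12, limma adjusted p = 0.00105). Of 31 members too low to be tested, none reached 1 RPKM.

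Below WT, the largest differences of middle level after *Dnmt1* were those of *Grb10*, *Otx2*, *Sycp3*, *Rps16* and *Aldoc*, given above. *Usp28*, a deubiquitinase, had 10.3 and 10.3 RPKM in WT and 4.42 and 4.53 RPKM in KO (log2 difference -1.18, SE 0.063, limma adjusted p = 4.40e-10). *Olig1*, a helix-loop-helix factor of oligodendrocytes, had 4.43 and 4.68 RPKM in WT and 1.97 and 2.04 RPKM in KO (log2 difference -1.14, SE 0.075, limma adjusted p = 6.03e-09), and *Igfbp2*, which binds insulin-like growth factors, 64 and 70.2 RPKM in WT and 29.7 and 33 RPKM in KO (log2 difference -1.1, SE 0.067, limma adjusted p = 2.42e-09). Of 25 neural and mesodermal markers in the table, 22 were too low to be tested, and of the other 3 *Tubb3*, a neuronal tubulin, was higher (0.38), *Olig2*, the neighbour and relative of *Olig1*, lower (-0.76), and *Nes* not called. *Neil2*, a DNA glycosylase of base excision repair, had 1.87 and 1.85 RPKM in WT and 0.817 and 0.815 RPKM in KO (log2 difference -1.1, SE 0.10, limma adjusted p = 3.26e-07). *Txnip*, an inhibitor of thioredoxin, had 56.4 and 68.2 RPKM in WT and 27.9 and 31.7 RPKM in KO (log2 difference -1.06, SE 0.10, limma adjusted p = 3.47e-07). Its row overlaps that of *Gm15441* on the opposite strand (-1.08), so their reads cannot be told apart, and with *Polr3gl* (-1.05), of RNA polymerase III, they formed the only run of 2-fold lower genes within 100000 bases of each other.

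Genes at least 2-fold higher lay on every autosome and on both sex chromosomes, with shares between 1.02% of tested genes on chromosome 16 and 6.51% on chromosome X (19 of 292), and 3 of 3 on Y. None of the 13 mitochondrial genes changed by that much. Of the 229, 40 lay in 16 runs of neighbours within 100000 bases, among them *Ccl2* with *Ccl7* (chromosome 11), *Zfp600* with *Gm13165* (chromosome 4), and *Col3a1* with *Col5a2* (chromosome 1). Chromosome 8 stood a little below the others, with 171 of 561 genes lower (30.5% against 21.0%) and 84 higher (14.97% against 24.2%), a median of -0.069 and, in the 4 pairs of a KO and a WT library, medians between -0.082 and -0.047. Its median was 0.0074 at day 0, -0.023 at day 3 and 0.059 at day 11. The chromosomes were described and not tested, since genes of a chromosome are not replicates.

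Day 9 was then compared with days 3 and 11, each with its own libraries. Day 6 was not used for this, because its *Dnmt1* levels go against its labels. At day 3, 1344 genes were higher (14.3%) and 1114 lower (11.8%), 84 (0.892%) and 13 (0.138%) of them by 2-fold or more. Of the 229 genes at least 2-fold higher at day 9, 191 were called higher at day 3 as well, where their median was 0.79 against 1.35 at day 9, and of the 32 lower 22 were. The change in KO effect from day 3 to day 9, tested directly, was upward in 744 genes (7.90%) and downward in 585 (6.21%). These counts were 325 and 200 without WT replicate 2, 372 and 262 without KO replicate 1, 366 and 227 without WT replicate 2 of day 3, and 474 and 306 without KO replicate 2 of day 3. Among the 229, 132 had moved further up and none down. They were chosen by their difference at day 9, which enters this test, so these counts and both medians are a description. The 5 largest increases were in *Rian* (3.62, SE 0.15, limma adjusted p = 5.07e-10), *Ddx3y* (2.71, limma adjusted p = 1.28e-06), *Eif2s3y* (1.97, limma adjusted p = 3.24e-08), *Aard* (1.69, limma adjusted p = 2.09e-04) and *Cubn* (1.68, limma adjusted p = 1.28e-06), as log2 differences between days. *Rian* had 0.59 and 0.555 RPKM in WT and 1.11 and 1.13 RPKM in KO at day 3, so most of its rise came later. *Otx2*, in contrast, had reached its difference by day 3 (-1.74).

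Among the largest decreases were those in *Grb10* (-1.74, limma adjusted p = 9.58e-08), *Gm17329* (-1.18, limma adjusted p = 0.0204), *Gm13610* (-1.04, limma adjusted p = 0.0151) and *Btnl7* (-0.97, limma adjusted p = 0.00245). *Grb10* did not differ between genotypes beyond the spread at day 3 (-0.019, limma adjusted p = 0.888), with 7.48 and 6.86 RPKM in WT and 7.02 and 7.11 RPKM in KO, and was low in both KO libraries at day 9. *Gm17329* has only 141 bases of exon and rests on at most 11 reads a library.

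At day 11 the libraries had another composition, with between 44.6% and 47.9% of reads in exons against 21.0% to 21.4% at day 9, so levels are not compared across these days and only the differences within a day are. Of the 229 genes, 189 were called higher at day 11 and of the 32, 28 were called lower. By itself, day 11 had 2686 genes higher (23.2%) and 1467 lower (12.7%) of 11594, 418 (3.61%) and 71 (0.612%) of them by 2-fold or more. The change of effect from day 9 to day 11 passed the test in 247 genes upward (2.13%) and 175 downward (1.51%). These counts rested on single libraries, since they became 1822 and 1338 without KO replicate 1 of day 11 and lay between 79 and 146 upward and 64 and 128 downward when 1 of the day 9 libraries was left out, or 116 and 104 without WT replicate 1 of day 11. The difference of *Rian* was larger at day 11 (7.94, limma adjusted p = 1.69e-09 for the difference between days). Those of *H19* (5.01, limma adjusted p = 4.61e-14) and *Eif2s3y* (4.71, limma adjusted p = 2.54e-07) were larger too. WT means of *Rian*, *H19* and *Eif2s3y* were 0.699, 20.4 and 0.77 RPKM at day 9. At day 11 these WT means were 0.0519, 9.13 and 0.228 RPKM. KO means were 17.6, 70.7 and 3.35 RPKM at day 9 and 36.1, 300 and 8.46 RPKM at day 11. Because library composition differed, how far WT or KO moved cannot be read from these levels. *Ly6a*, a surface antigen, had 1.93 and 1.16 RPKM in WT and 4.45 and 3.56 RPKM in KO at day 9 (log2 difference 1.35, SE 0.27, limma adjusted p = 6.94e-04) and went the other way at day 11 (-1.89). *Cubn* no longer passed the test at day 11 (0.29, limma adjusted p = 0.145).

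**Figure D5:**
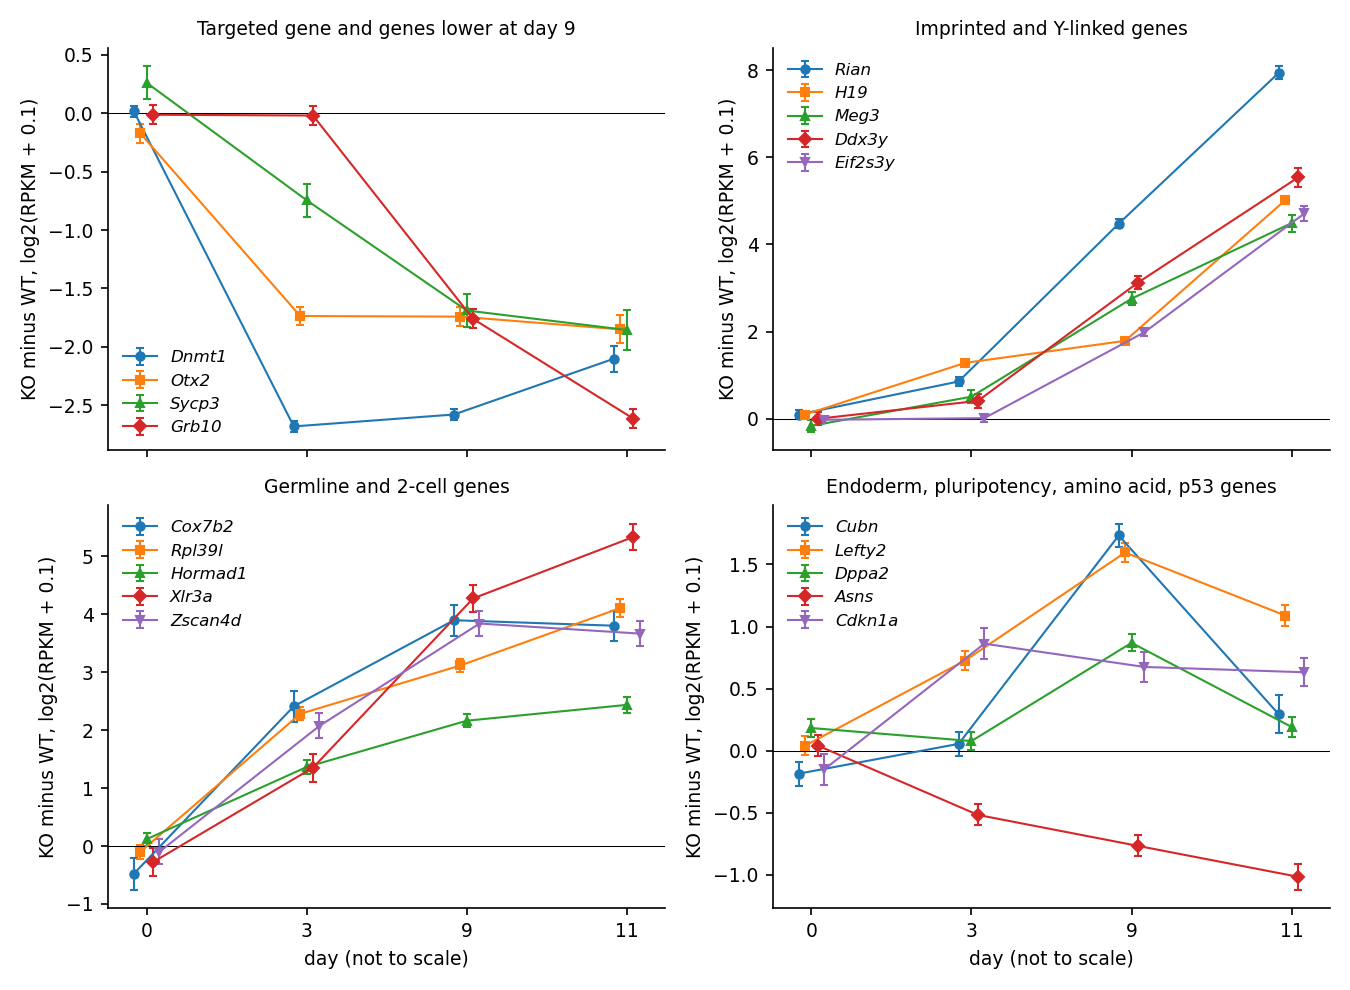
Difference between KO and WT on the log2(RPKM + 0.1) scale at days 0, 3, 9 and 11, with the SE of the limma fit as error bars, 2 libraries a genotype and day. *Dnmt1* and *Otx2* had reached their difference at day 3, *Grb10* differed from day 9 on, and the differences of *Grb10*, *Rian*, *H19*, *Ddx3y* and *Eif2s3y* were larger at day 11 than at day 9, while that of *Cubn* was largest at day 9. Days are evenly spaced and not to scale.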

How the data were processed

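Total RNA of mouse ESCs was depleted of ribosomal RNA and sequenced in 35 libraries, 4 of them of day 9. Per the labels, reads were trimmed with Trim Galore 0.3.5 and mapped with TopHat2 2.0.11 to NCBIM37. The deposited values are linear RPKM over the exons of 26127 genes, which the authors made in SeqMonk, although the methods name log2 reads per mega-read, and the design had assumed that kind of unit. Whether counting used strand is not given in the sources used here. At least 99.5% of low values were whole reads within 0.1 of a read, given exon lengths of the GENCODE annotation of this build, and recovered reads served as an alternative.

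Differences were tested with limma 3.58.1 in R 4.3.3 (group means, trended spread, 10 residual degrees of freedom) on log2(RPKM + 0.1) over 20 libraries of days 0 to 9 with a low share of reads in exons, for genes above 1 RPKM in at least 2. Day 11 was fitted over 32 libraries. Replicate 3 of day 1 was left out because it mixes the 2 kinds of library. The day 6 libraries, whose *Dnmt1* levels go against their labels, only add to the spread estimate. Genes were called at a Benjamini-Hochberg adjusted p below 0.05, and named as the 15 largest rises and falls with a mean log2 level of at least 0 and groups that do not overlap, the 5 largest changes each way between days 3 and 9, and list members. Some genes that this rule takes are not reported here. Alternatives covered the libraries fitted, pseudocount, filter, scaling, recovered reads, a replicate block and leaving out each library. The fit was tested on simulated data. Lists and members were chosen with earlier results of these data known. Promoters are from RefSeq, matched by symbol.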

Additional observations from a re-analysis of the deposited data

Results flagged for a closer look

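The KO effect differed between days by a direct test (limma, adjusted p below 0.05). From day 3 to day 9 it moved upward in 744 genes and downward in 585, and from day 9 to day 11 upward in 247 and downward in 175. Among genes of at least middle level, the largest upward moves from day 3 to day 9, as log2 differences, were 3.62 in *Rian*, 2.71 in *Ddx3y*, 1.97 in *Eif2s3y*, 1.69 in *Aard* and 1.68 in *Cubn*. Among the largest downward moves were -1.74 in *Grb10*, -1.18 in *Gm17329*, -1.04 in *Gm13610* and -0.97 in *Btnl7*. In *Cubn* the move lay in the WT libraries, which came down, and in *Ddx3y* WT came down while KO went up.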

How the results depend on the processing

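None of the genes taken by the rule for the largest changes changed direction in any alternative run. Genes that differed little, such as *Pou5f1* and *Atf4*, are not covered by this, since centring shifts all differences alike. Centring each library on its median turned the balance of calls from 2283 higher and 1981 lower to 1802 and 2714, the core pluripotency median from 0.015 to -0.045 and the ribosomal protein median from 0.035 to -0.026. Without the filter the median of testis paralogs was 0.060 in place of -0.21, and that of formative genes 0.027 in place of -0.036. The count of genes higher at day 9 was 286 with all 34 libraries in the fit and 3532 without the filter, and of genes lower 96 with all 34 libraries and 1259 with all libraries except replicate 3 of day 1. Genes at least 2-fold higher numbered 95 with a pseudocount of 1 and 529 without the filter. Those at least 2-fold lower numbered 21 with only the libraries of the days compared, 9 with a pseudocount of 1, 84 without the filter and 20 with the filter on the day 9 libraries. At day 0, 1 gene was higher without the filter and 1 with voom, while 4 were lower with only the libraries of the days compared, 1 with a pseudocount of 1, 1 without the filter and 14 with voom. The move from day 9 to day 11 was upward in 9 genes and downward in 4 with all 34 libraries, and in 496 and 296 with a pseudocount of 1. The cause of these changes was not tested.

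Leaving out 1 library at a time gave between 1658 and 2007 genes higher at day 9 and between 1438 and 1590 lower. It gave between 0 and 1 genes higher at day 0 and between 655 and 696 lower at day 3. From day 3 to day 9, between 325 and 757 genes moved upward and between 200 and 554 downward, with the fewest without WT replicate 2 of day 9. From day 9 to day 11, between 79 and 1822 moved upward and between 64 and 1338 downward, with the most without KO replicate 1 of day 11. Of the 229 genes at least 2-fold higher, between 227 and 229 were still called without 1 library, and 135 with all 34 libraries.

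With the replicate number as a block, 2134 genes were higher and 1827 lower, and with median centring as well (chosen after seeing the data) 1686 and 2507. Deviations of same-numbered libraries correlated at r = 0.12 across genes at day 9, with only 2 numbers, so the numbers are not taken as pairs. Of 702 alternatives for named genes and list medians, 666 left the call or value in place, 27 moved a median, 8 lost a call and 1 gained one. The calls of *Gm3395*, *Aard*, *Rps16*, *Gm15441*, *Cobl* and *Gm13610* were lost with all 34 libraries, and *Gm13610* also without KO replicate 1. Depth limits genes near 3 reads, whose fitted differences depend on the pseudocount.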
